A study of Mus musculus with 14 samples.

Results

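The genes described here make up the class I antigen presentation pathway of the mouse: the heavy chains H2-K1, H2-D1 and H2-T23, the light chain B2m, and 6 genes of peptide supply and loading, Tap1, Tap2, Tapbp, Erap1, Calr and Pdia3. They were found by the gene name that the scanner files give each probe, where Erap1 is written Arts1. The 10 genes have 19 probes, and 18 of these were among the 24515 probes (17033 genes) that were well above background on at least 3 arrays and so were tested. The probe left out, the other Erap1 probe, was well above background on 0 of the 14 arrays, while each of the 18 tested probes was well above background on all 14 arrays.

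RNA came from B16F10 melanoma tumours grown in C57BL/6 mice and was hybridised to Agilent 1-colour arrays, 14 in all. In the CTL with anti-IFNg arm, mice received in vitro activated gp100-specific CD90.1+ cytotoxic T cells (CTL) on day 0 and an antibody to interferon gamma by intraperitoneal injection on days 0 and 2. The CTL with IgG arm received the same cells and control Rat IgG on the same days, the CTL arm received the cells without antibody, and the untreated arm received neither. Each array held pooled RNA, of 3 tumours in both antibody arms (days 3, 5 and 7) and of 4 tumours in the CTL and untreated arms (days 1, 3, 5 and 7). No combination of arm and day was repeated, so n counts days, and the p-values measure how same-day differences between pools varied over days, not variation between mice.

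The arrays of a day shared a slide, and since an arm kept its place from slide to slide, the place and the arm cannot be told apart. Between 48.9% and 59.7% of spots were well above background, and no spot was saturated. The 7 melanocyte markers were well above background on every array and none of their 10 tested probes passed the test between CTL and untreated tumours or between anti-IFNg and IgG. In a fit without day 7, however, 2 of the 10 were lower in CTL than in untreated tumours.

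Class I molecules display peptides from inside the cell to CD8+ T cells. Peptides cut by the proteasome are carried into the endoplasmic reticulum by the transporter TAP (Tap1 and Tap2), trimmed by the aminopeptidase Erap1, and loaded onto a heavy chain with B2m in a complex held together by tapasin (Tapbp), calreticulin (Calr) and the disulphide isomerase Pdia3. Interferon gamma is known to induce most of these genes, and tumours with little class I on their surface are poorly seen by CTL. H2-K1 and H2-D1 encode the classical chains present in C57BL/6 mice, and H2-T23 encodes the Qa-1 chain, which is recognised by the CD94 and NKG2 receptors of NK cells and CD8+ T cells.

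Promoter sequence is shown because the heavy chains moved together in the data below and their promoters can be compared base by base. RefSeq promoter entries of GRCm38.p6 matched 9 of the 10 genes by symbol, Tap2 being the exception. In the 250 bases before each annotated start, the core of the interferon regulatory factor element (GAANNGAAA, read on both strands) was present in 2 of the 9 promoters, those of H2-K1 and H2-D1, against 6.34% of all 27025 promoters. The windows around that match are given 5′ to 3′ on the gene's strand, with the match in capitals.
H2-K1: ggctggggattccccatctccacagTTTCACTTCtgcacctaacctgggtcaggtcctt
H2-D1: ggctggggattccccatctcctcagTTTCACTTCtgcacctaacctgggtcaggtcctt
The H2-K1 window lies at chr17:34000404-34000462 on the minus strand and the H2-D1 window at chr17:35262919-35262977 on the plus strand. They share 58 of 59 bases and differ by A22T, where positions count from 1 at the window's 5′ end, H2-K1's base stands first and H2-D1's last. The match begins 90 bases before the annotated start of H2-K1 and 150 bases before that of H2-D1.

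The other heavy chain and the light chain had no such match in their windows. Their last 100 bases before the start are shown with the inverted CCAAT box (ATTGG, read on both strands) in capitals.
H2-T23: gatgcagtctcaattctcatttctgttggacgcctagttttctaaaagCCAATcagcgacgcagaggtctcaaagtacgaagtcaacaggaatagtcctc
B2m: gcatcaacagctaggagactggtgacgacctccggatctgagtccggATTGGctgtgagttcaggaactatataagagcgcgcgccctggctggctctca
These windows lie at chr17:36032702-36032801 on the minus strand and chr2:122147587-122147686 on the plus strand. The 5 letters ATTGG were found in 8 of the 9 promoters, Erap1 being the exception, against 34.5% of all promoters. The 8 include Calr and Pdia3, which did not rise in the tumours. The gamma-activated site (TTCNNNGAA) was in none of the 9, against 7.18% of all promoters. The matches of different motifs in the H2-K1 and H2-D1 promoters did not overlap, and a match or its absence in these windows is a description of letters only.

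CTL transfer was followed by a joint rise of class I heavy chains, light chain, transporter, tapasin and Erap1 on days 3, 5 and 7. Of the 18 tested probes 15, from 8 genes, were higher in CTL than in untreated tumours, where 9.07% of all probes were higher. The median of the 18 probes was 3.06 on the log2 scale, against -0.12 for all probes. Calr and Pdia3 stood apart: 1 Calr probe was lower, where 19.6% of all probes were lower, and the other Calr probe and Pdia3 did not pass. The test was limma's moderated test with a term for arm and for day, Benjamini-Hochberg adjusted over all probes at 0.05, on log2 processed signal minus the array's 75th percentile, the scale of every level below.

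**Figure D1:**
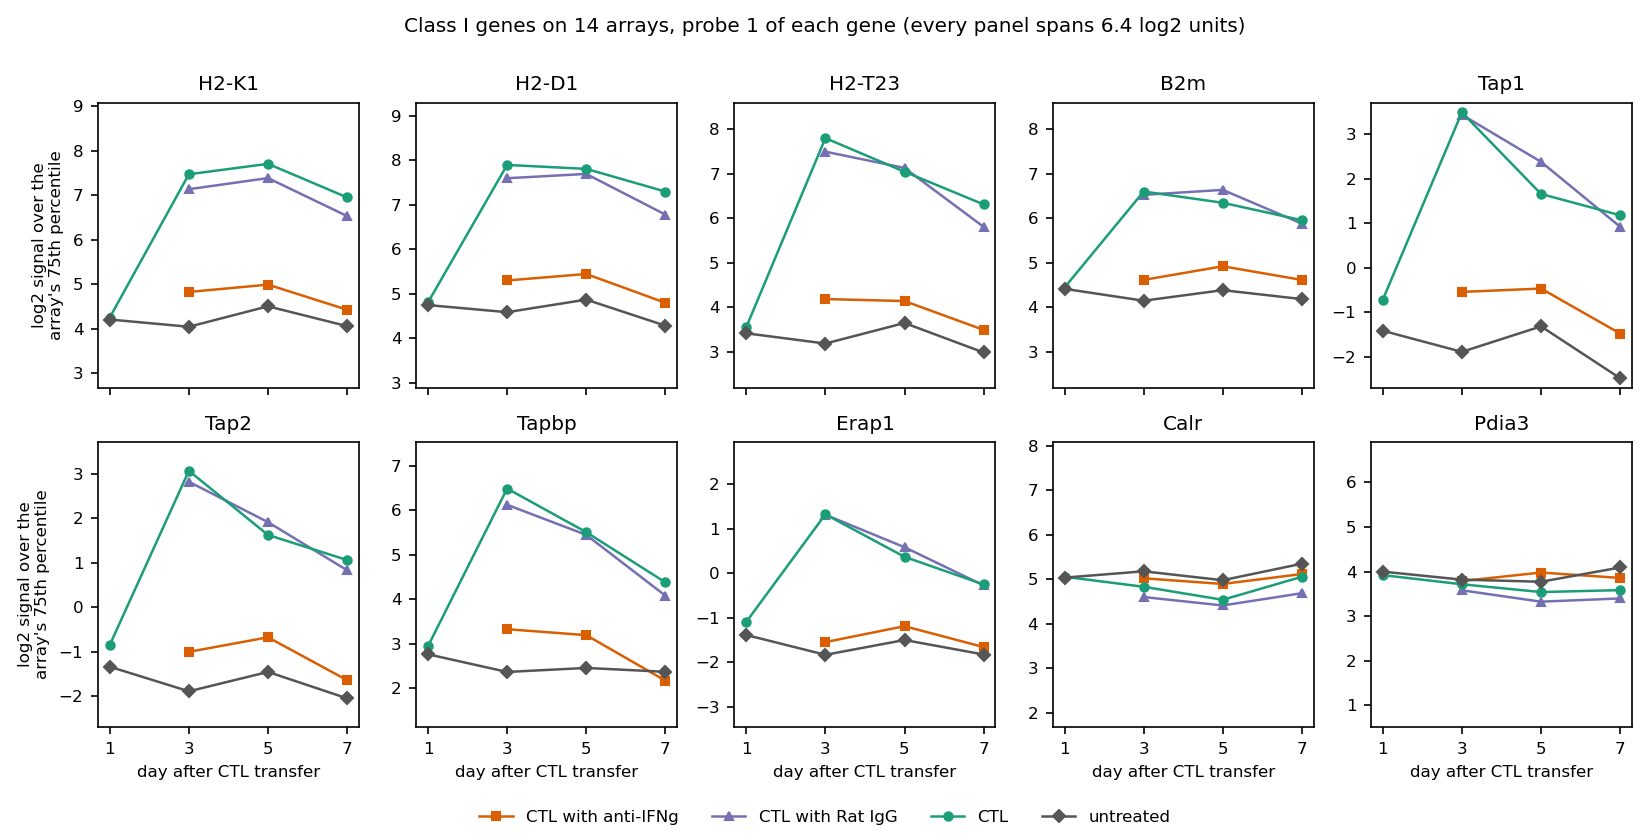
Levels of the 10 genes on all 14 arrays (y axis, log2 signal over the array's 75th percentile; x axis, day after CTL transfer), for probe 1 of each gene, each point 1 array of pooled tumours and each line 1 arm. For H2-K1, H2-D1, H2-T23, B2m, Tap1, Tap2, Tapbp and Erap1 the CTL and CTL with IgG arrays of days 3 to 7 lie above the anti-IFNg and untreated arrays of the same day, whereas Calr stays between 4.41 and 5.35 and Pdia3 between 3.32 and 4.09.

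Among the heavy chains, H2-K1 probe 1 read 7.47, 7.70 and 6.95 in CTL tumours of days 3, 5 and 7, against 4.05, 4.50 and 4.06 in untreated tumours. H2-D1 probe 1 read 7.90, 7.81 and 7.30 in CTL tumours, against 4.59, 4.87 and 4.29 in untreated tumours. H2-T23, with 1 probe, read 7.80, 7.05 and 6.31 in CTL tumours, against 3.19, 3.65 and 2.99 in untreated tumours. In all 3 genes the lowest CTL array of these days lay above the highest untreated array. The same held for 15 of the 18 tested probes and for 11.6% of all probes. The fitted changes were 3.17 ± 0.13 for H2-K1 (SE, 9.01-fold, adjusted p = 8e-06), 3.08 ± 0.12 for H2-D1 (8.49-fold, adjusted p = 6.71e-06) and 3.78 ± 0.27 for H2-T23 (13.7-fold, adjusted p = 0.000123).

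Different probes of a heavy chain gave like changes, although their levels cannot be set against each other. The H2-K1 probes 2, 3 and 4 changed by 3.27 ± 0.15, 3.48 ± 0.27 and 3.13 ± 0.15, and H2-D1 probe 2 changed by 3.06 ± 0.11. In the mm8 build of the scanner files, H2-K1 probes 1 and 2 lie at chr17:33606564-33606623 and chr17:33606572-33606626 and therefore overlap, whereas probe 4 lies apart at chr17:33609797-33609856. H2-K1 probe 3 (247 bases from first to last), H2-D1 probe 2 (233), H2-T23 (237) and Tap2 (588) are placed on stretches longer than the 60 bases of most other probes. Exon annotation for mm8 was not used here. The scanner files list a second RefSeq transcript for H2-D1 probe 1, which the RefSeq table names H2-Q2, so that value may hold signal of more than 1 class I gene.

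The light chain B2m, with which class I heavy chains pair, had a smaller fitted rise than the heavy chains. Its probe 1 read 6.60, 6.35 and 5.96 in CTL tumours of days 3, 5 and 7, against 4.15, 4.39 and 4.19 in untreated tumours, and the arms did not overlap. The changes of probes 1, 2 and 3 were 2.06 ± 0.17, 2.01 ± 0.18 and 2.66 ± 0.21 (adjusted p = 0.00019, 0.000358 and 0.000172). The 95% intervals of B2m probe 1 (1.68 to 2.45) and H2-K1 probe 1 (2.88 to 3.47) did not overlap, though the difference between genes itself was not tested. Probe 3 lies 5′ of the others, at chr2:121840304-121840363, and is annotated in the files with a full-length cDNA instead of the RefSeq transcript.

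Both TAP subunits, which form the peptide pump of the endoplasmic reticulum, rose. Tap1 read 3.49, 1.66 and 1.18 in CTL tumours of days 3, 5 and 7, against -1.89, -1.32 and -2.48 in untreated tumours. Tap2 read 3.07, 1.63 and 1.06 in CTL tumours, against -1.88, -1.45 and -2.04 in untreated tumours. For both genes the highest level fell on day 3 and the CTL and untreated arrays did not overlap. The fitted changes were 4.00 ± 0.44 for Tap1 (16-fold, adjusted p = 0.0008) and 3.71 ± 0.39 for Tap2 (13.1-fold, adjusted p = 0.00068).

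Tapasin, which bridges TAP and the empty class I molecule, and the trimming peptidase Erap1 also rose. Tapbp probe 1 read 6.49, 5.51 and 4.38 in CTL tumours, against 2.37, 2.46 and 2.37 in untreated tumours, a change of 3.06 ± 0.36 (adjusted p = 0.0011). Tapbp probe 2 changed less, by 1.55 ± 0.24 (adjusted p = 0.00349), and the 95% intervals of the 2 probes (2.23 to 3.89 and 1.00 to 2.10) did not overlap. The files list the same pair of RefSeq transcripts for both Tapbp probes, so the probes disagree on the size of the change and not on its direction. Erap1 probe 1 read 1.32, 0.37 and -0.25 in CTL tumours, against -1.83, -1.50 and -1.82 in untreated tumours, a change of 2.20 ± 0.34 (4.59-fold, adjusted p = 0.00339). With day 5 left out, Erap1 (adjusted p = 0.0753) and both Tapbp probes (0.0557 and 0.0797) no longer passed.

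Of the 8 genes that rose, 6 lie within 2.1 megabases of chromosome 17 in mm8 (33536605 to 35638682), the H2 complex: Tapbp, H2-K1, Tap1, Tap2, H2-D1 and H2-T23. The other two, B2m on chromosome 2 and Erap1 on chromosome 13, rose as well, so the rise was not limited to that cluster. Pdia3 also lies on chromosome 2 and Calr on chromosome 8. The 6 are all the members on chromosome 17, so their number was set by the choice of genes.

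Calr and Pdia3, general folding factors of the endoplasmic reticulum that also serve in peptide loading, did not join the rise. Calr probe 1 read 4.83, 4.54 and 5.06 in CTL tumours of days 3, 5 and 7, against 5.18, 4.98 and 5.35 in untreated tumours. Every CTL array was below the untreated array of its day, by 0.29 to 0.44, but the arms overlapped over days. The fitted change was -0.36 ± 0.09 (adjusted p = 0.0227), relative to a median of -0.12 over all probes. This call was lost in 8 of 13 other settings, among them quantile normalization (-0.25, adjusted p = 0.0959) and each fit without day 3, 5 or 7 (adjusted p = 0.187, 0.24 and 0.0517). Calr probe 2 changed by -0.14 ± 0.11 (adjusted p = 0.34, 95% interval -0.39 to 0.10), and Pdia3 by -0.28 ± 0.12 (adjusted p = 0.122, 95% interval -0.57 to 0.01), which passed in 2 of 13 other settings.

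**Figure D2:**
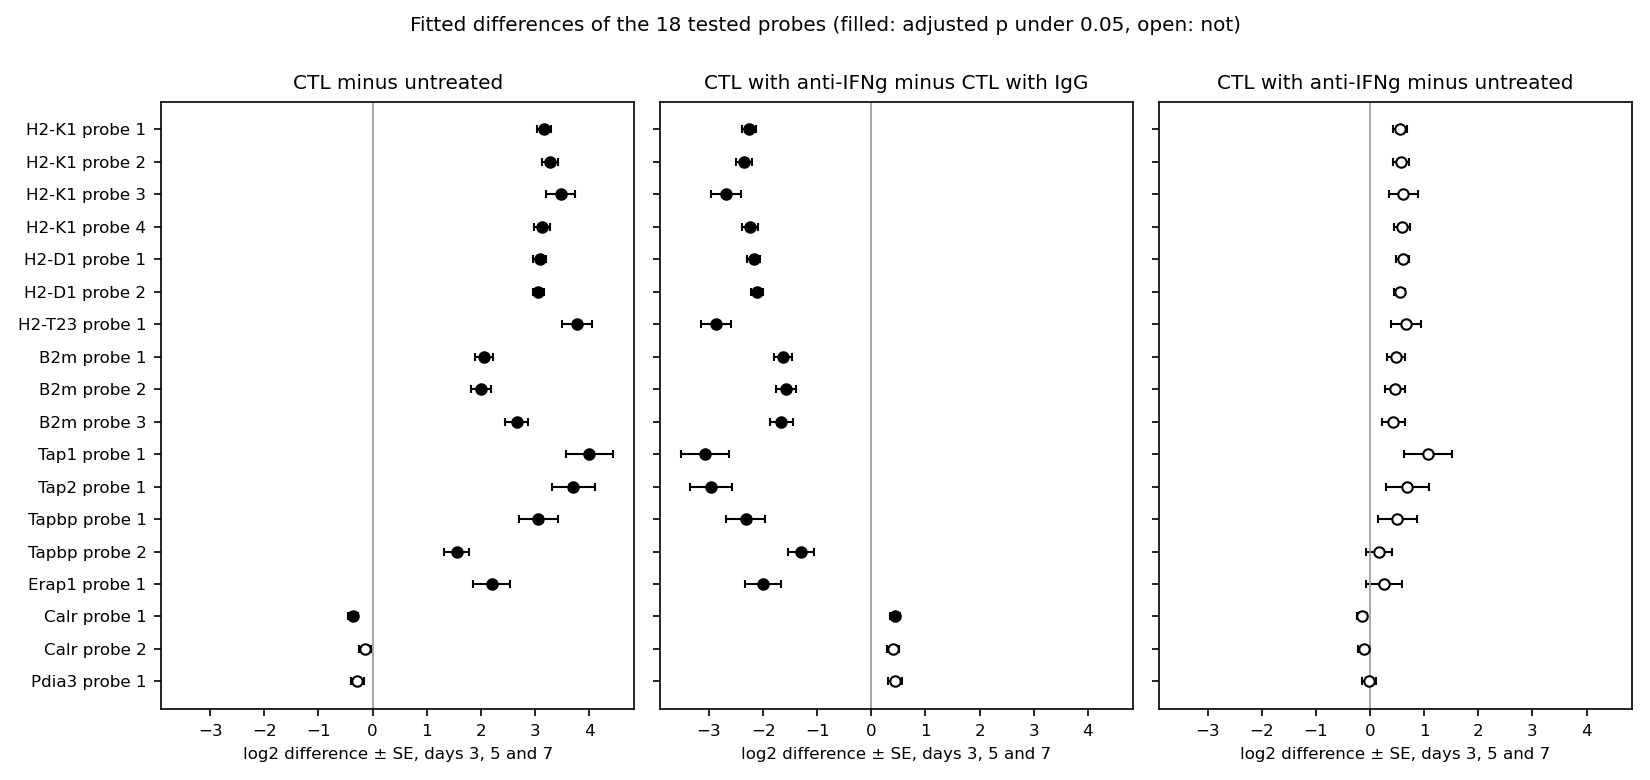
Fitted log2 differences with SE (x axis) of the 18 tested probes (y axis) between arms on days 3, 5 and 7. Probes of H2-K1, H2-D1, H2-T23, B2m, Tap1, Tap2, Tapbp and Erap1 lie to the right of 0 for CTL minus untreated (1.55 to 4.00) and to the left of 0 for anti-IFNg minus IgG (-3.07 to -1.30). For anti-IFNg minus untreated they lie to the right of 0 by less (0.16 to 1.07, none past the threshold). Calr and Pdia3 lie on the other side of 0 in the left and middle panels.

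With interferon gamma blocked, the same 8 genes were lower under CTL transfer. Of the 18 probes 15, from 8 genes, were lower in CTL with anti-IFNg than in CTL with IgG tumours, where 5.15% of all probes were lower, and 1, Calr probe 1, was higher, where 6.07% of all probes were higher. The median of the 18 was -2.15, against 0.08 for all probes. All 15 lost the call when a single CTL effect was fitted for all days, day 1 included (adjusted p = 0.058 to 0.0732). Without day 5, 5 of the 15 passed: the H2-D1 probes and H2-K1 probes 1, 2 and 4.

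H2-K1 probe 1 read 4.83, 4.99 and 4.43 with anti-IFNg on days 3, 5 and 7, against 7.13, 7.38 and 6.53 with IgG. H2-D1 probe 1 read 5.30, 5.45 and 4.80 with anti-IFNg, against 7.60, 7.69 and 6.78 with IgG. H2-T23 read 4.19, 4.14 and 3.49 with anti-IFNg, against 7.50, 7.13 and 5.81 with IgG. The antibody arms did not overlap for any of these heavy chains. Every anti-IFNg array lay below every IgG array for 15 of the 18 tested probes and for 13.4% of all probes. The differences were -2.27 ± 0.13 for H2-K1 (adjusted p = 0.000128), -2.17 ± 0.12 for H2-D1 (adjusted p = 0.000122) and -2.87 ± 0.27 for H2-T23 (adjusted p = 0.00135), or 4.82-, 4.51- and 7.31-fold lower with anti-IFNg.

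B2m probe 1 read 4.62, 4.92 and 4.62 with anti-IFNg, against 6.53, 6.64 and 5.88 with IgG, a difference of -1.63 ± 0.17 (adjusted p = 0.00174). Tap1 read -0.54, -0.47 and -1.48 with anti-IFNg, against 3.44, 2.38 and 0.92 with IgG, a difference of -3.07 ± 0.44 (8.42-fold lower, adjusted p = 0.00547). Tap2 read -0.998, -0.67 and -1.63 with anti-IFNg, against 2.82, 1.91 and 0.83 with IgG, a difference of -2.96 ± 0.39 (adjusted p = 0.00428). As for the heavy chains, every anti-IFNg array was below every IgG array. Tapbp probes 1 and 2 differed by -2.32 ± 0.36 and -1.30 ± 0.24 (adjusted p = 0.0073 and 0.013), and Erap1 by -2.01 ± 0.34 (adjusted p = 0.00923).

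Calr and Pdia3 were again on the opposite side. Calr probe 1 read 5.02, 4.90 and 5.12 with anti-IFNg, against 4.60, 4.41 and 4.69 with IgG, without overlap, a difference of 0.44 ± 0.09 (adjusted p = 0.0198). Of all probes, 22.4% likewise had every anti-IFNg array above every IgG array. Calr probe 2 (0.40 ± 0.11, adjusted p = 0.0524) and Pdia3 (0.44 ± 0.12, adjusted p = 0.0588) did not pass. The Calr call was lost in 8 of 13 other settings, including each fit that left out a day.

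Against untreated tumours, whose arrays also serve the CTL and IgG comparisons, the anti-IFNg arm gave no call among the 18 probes (limma), where 0.118% of all probes were higher and 0.00408% lower. At an unadjusted p under 0.05, 9 of the 18 were higher and 0 lower, where 592 of all 24515 probes were higher and 896 lower. With an intensity trend in limma's variance estimate 1 probe passed. H2-D1 probe 2 read 4.83, 5.02 and 4.46 with anti-IFNg on days 3, 5 and 7, against 4.20, 4.49 and 3.99 in untreated tumours. Its level was higher on each day, by 0.63, 0.54 and 0.48, and the difference of 0.55 ± 0.11 had an adjusted p of 0.182 and a 95% interval of 0.31 to 0.79. H2-K1 probe 1 differed by 0.55 ± 0.13 (0.25 to 0.84), B2m probe 1 by 0.48 ± 0.17 (0.09 to 0.86) and Tap1 by 1.07 ± 0.44 (0.06 to 2.07). Erap1 differed by 0.25 ± 0.34 (-0.52 to 1.02) and Pdia3 by -0.02 ± 0.12 (-0.31 to 0.27). These intervals do not show that the anti-IFNg and untreated tumours were alike.

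The IgG arm, whose arrays also serve the comparison with anti-IFNg, was higher than the untreated arm for 15 probes of the 8 genes, by 1.46 to 4.14, where 6.52% of all probes were higher. Here 3 probes were lower, where 10.3% of all probes were lower: Calr probes 1 and 2, by -0.60 ± 0.09 (adjusted p = 0.0038) and -0.51 ± 0.11 (adjusted p = 0.0152), and Pdia3, by -0.46 ± 0.12 (adjusted p = 0.0394). Pdia3 read 3.58, 3.32 and 3.40 in IgG tumours, against 3.82, 3.77 and 4.09 in untreated tumours, so these arms did not overlap. Of all probes, 21.1% likewise had every IgG array below every untreated array. The 3 lower calls came to 0 under normexp, with only the arms compared and without day 3 or day 5, and to 1 with no filter on dim probes.

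Between CTL with IgG and CTL without antibody, none of the 18 probes passed (limma), where 0% of all probes were higher and 0.00816% lower. At an unadjusted p under 0.05, 7 of the 18 were lower and 0 higher, where 2175 of all 24514 probes were lower and 2273 higher. H2-K1 probe 1 differed by -0.36 ± 0.13 (95% interval -0.65 to -0.06), H2-D1 probe 2 by -0.40 ± 0.11 (-0.64 to -0.16) and Tap1 by 0.14 ± 0.44 (-0.87 to 1.14).

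On day 1 the rise had not yet appeared in the heavy and light chains. H2-K1 probe 1 read 4.25 in the CTL tumours of day 1, against 4.21 in the untreated ones, and H2-D1 probe 1 read 4.81 against 4.75 untreated. The median difference over the 18 probes was 0.06 on day 1, 3.25 on day 3, 2.88 on day 5 and 2.61 on day 7. The CTL effect of day 1 was smaller than that of days 3 to 7 for 9 of the 18 probes (0.747% of all probes were lower and 0.159% higher): both H2-D1 probes, the 4 H2-K1 probes, H2-T23 and B2m probes 1 and 3. H2-K1 probe 1 gave -3.13 ± 0.26 and H2-T23 -3.64 ± 0.55. The CTL array of day 1 got its own term because earlier results of these data showed another CTL effect on that day. These calls therefore describe a difference already seen and are no independent test of it. Day 1 is 1 pair of arrays, assumed to vary like the other days, and no member passed in the fits without day 3, without day 5 or with only the CTL and untreated arms.

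The transporter genes had the largest day 1 differences of the members. Tap1 read -0.72 in the CTL tumours of day 1, against -1.42 in the untreated ones, a difference of 0.70, and Tap2 read -0.84 against -1.33 untreated, a difference of 0.49. Erap1 (0.29) and Tapbp probe 1 (0.18) followed, while the H2-K1, H2-D1 and H2-T23 probes lay between 0.03 and 0.14. With 1 array per arm on that day, these values have no replicate check.

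**Figure D3:**
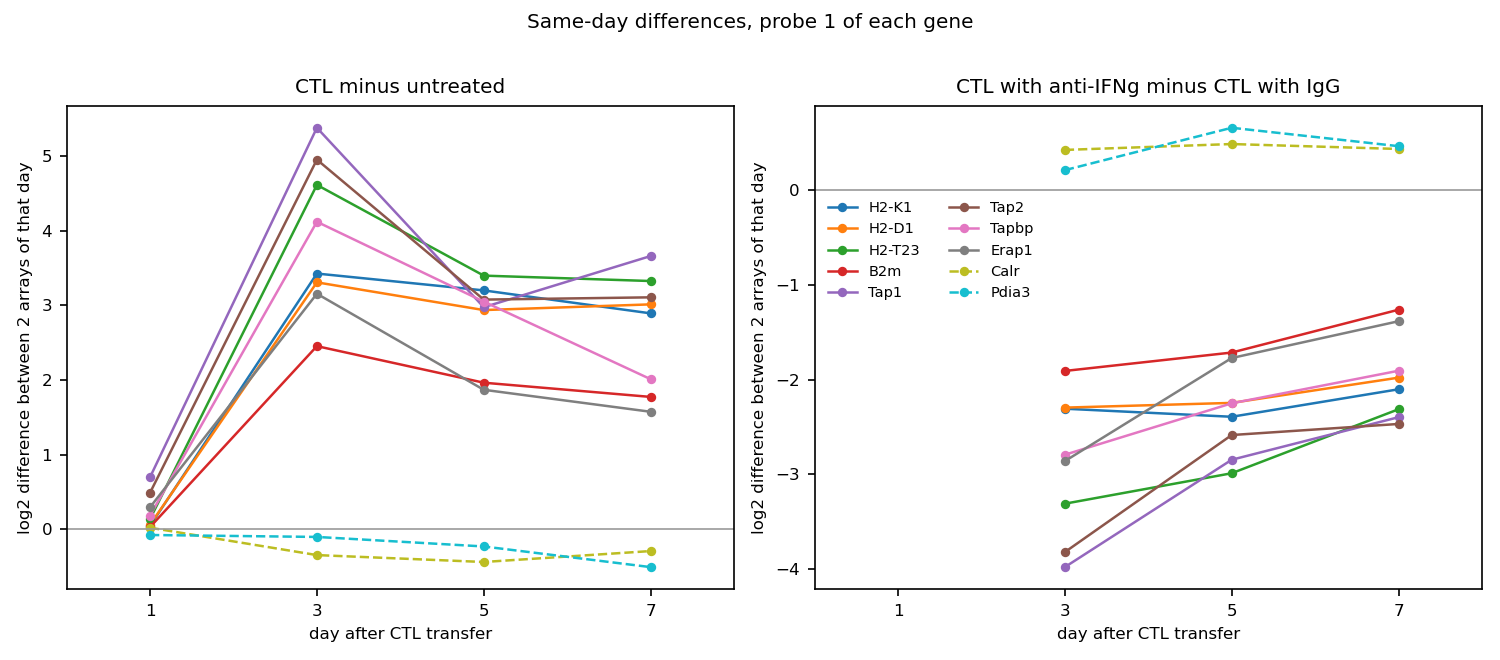
Log2 differences between 2 arrays of the same day (y axis) by day after CTL transfer (x axis), probe 1 of each gene, for CTL minus untreated (left) and CTL with anti-IFNg minus CTL with IgG (right, days 3, 5 and 7 only). In the left panel Tap1 is highest on day 3 at 5.38 and reads 2.97 and 3.66 on days 5 and 7, while H2-D1 stays between 2.94 and 3.31 from day 3 on, and the dashed lines of Calr and Pdia3 stay at or below 0.02.

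With the day term in the fit, no slope over days 3 to 7 passed the test for any of the 18 member probes. The fitted slope per day, shared by the CTL and IgG arms and taken relative to the untreated and anti-IFNg arms, was -0.38 ± 0.06 for Erap1, -0.41 ± 0.13 for Tap1, -0.40 ± 0.10 for Tap2, and -0.37 ± 0.09 and -0.26 ± 0.05 for Tapbp probes 1 and 2. Among the heavy chains it was -0.29 ± 0.07 for H2-T23, -0.08 ± 0.05 and -0.03 ± 0.05 for the H2-D1 probes, and -0.09 ± 0.05, -0.11 ± 0.05, -0.26 ± 0.08 and -0.09 ± 0.06 for H2-K1 probes 1 to 4, so the ranges of loading genes and heavy chains overlapped. The lowest adjusted p was that of Erap1 (0.0661, limma), where 0.0122% of all probes were higher and 0.204% lower. At an unadjusted p under 0.05, 9 of the 18 slopes were lower and 0 higher, where 1505 of all 24514 probes were lower and 1471 higher. Without the day term 7 passed, and 1 passed with probes well above background on all arrays or with the intensity trend. The difference in slope between genes was not tested.

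Other class I chains behaved like H2-K1 and H2-D1. The list held 28 genes, of which 17 had tested probes, and it was chosen with results of these data known. Of its 24 tested probes 18 (13 genes) were higher and 3 (2 genes) lower in CTL than in untreated tumours, with a median of 2.87 against -0.12 over all probes. With anti-IFNg, 16 were lower and 2 higher than with IgG, with a median of -2.13 against 0.08. The 16 lower calls came to 8 without day 5 and 0 with a single CTL effect for all days. H2-Q1 changed by 3.12 ± 0.11 (adjusted p = 2.74e-06) with CTL and -2.14 ± 0.11 with anti-IFNg, H2-Q7 by 3.29 ± 0.15 and -2.37 ± 0.15, and H2-Bl by 2.94 ± 0.14 and -2.12 ± 0.14. Of the H2-Q10 probes, 1 changed by 3.20 ± 0.14 and -2.29 ± 0.14, and another, well above background on 0 of the 3 untreated arrays of days 3 to 7, was at least 4.13-fold higher with CTL. Not every probe of these genes gave a signal. A further H2-Q1 probe and a further H2-Q10 probe were well above background on 0 of the 3 CTL arrays of days 3 to 7. Other H2-Bl probes were so on 1 and 0 of these arrays. All of these were too dim to be tested. Many, though not all, class I genes are closely alike in sequence, the changes named above are close to those of H2-K1 and H2-D1, and how much the probes share signal was not tested. The 3 lower probes, looked up after their values were seen, were those of Hfe and Azgp1, which are class I-like in fold but do not present peptides.

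The interferon-inducible proteasome subunits, which cut class I ligands, and the proteasome activator moved with the 8 genes. All 7 probes of the 5 immunoproteasome and activator genes were higher in CTL than in untreated tumours, with a median of 2.75, and all 7 were lower with anti-IFNg than with IgG, with a median of -2.71. Psmb9 changed by 5.25 ± 0.39 with CTL and -4.06 ± 0.39 with anti-IFNg, and Psmb8 by 5.17 ± 0.37 and -3.99 ± 0.37. The activator subunits Psme1 (2.07 ± 0.25 and -1.81 ± 0.25) and Psme2 (2.07 ± 0.24 and -1.91 ± 0.24) moved less. With day 5 left out, 4 of the 7 passed with CTL and 2 with anti-IFNg, and with a single CTL effect for all days 0 passed with anti-IFNg.

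Cytosolic and other peptidases outside the 10 genes showed no shared direction. Of 13 probes tested, 3 were higher and 4 lower with CTL, with a median of -0.13 against -0.12 over all probes. The 3 higher probes all belong to Lap3, a leucine aminopeptidase induced by interferon gamma, whose best probe changed by 1.43 ± 0.36 (adjusted p = 0.022) with CTL and -1.51 ± 0.36 with anti-IFNg. Nrd1 (-0.44 ± 0.11), Thop1, which destroys cytosolic peptides (-0.68 ± 0.17), and Blmh (-0.61 ± 0.16) were lower with CTL. No peptidase probe passed with CTL or with anti-IFNg in the fits without day 3, without day 5, with a single CTL effect or with only the arms compared.

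Among regulators of class I genes, 11 of 27 tested probes (5 of 13 genes) were higher and 1 lower with CTL, with a median of 0.29, and 9 were lower with anti-IFNg. Without day 5 these counts were 3 higher with CTL and 0 lower with anti-IFNg, with only the arms compared 7 and 6, and with a single CTL effect 8 and 0. Irf1, a transcription factor that binds the element shown above, changed by 3.86 ± 0.50 and 3.31 ± 0.59 on its 2 probes. The brighter Irf1 probe read 3.16, 2.90 and 2.29 with anti-IFNg on days 3, 5 and 7, against 7.75, 6.35 and 5.11 with IgG. Ciita, the class II transactivator, changed by 6.07 ± 0.48 with CTL and -4.42 ± 0.48 with anti-IFNg. Nfkb1 was higher with CTL on 2 of its 4 probes, by 0.84 ± 0.15 and 1.12 ± 0.25. Neither of these passed between anti-IFNg and IgG (-0.13 ± 0.15 and -0.19 ± 0.25). On each of days 3, 5 and 7 both probes read lower with IgG than in CTL tumours, though above untreated tumours. The IgG arm thus had less of a rise for the antibody to lower. Whether the full rise of these probes in CTL tumours depends on interferon gamma was not tested.

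The chaperones of the endoplasmic reticulum outside the 10 genes moved as Calr and Pdia3 did. Of 23 tested probes 16 (9 genes) were lower and 1 higher with CTL, with a median of -0.55 against -0.12 over all probes. With anti-IFNg, 15 were higher and 1 lower than with IgG, with a median of 0.55 against 0.08. Canx, the membrane-bound relative of calreticulin, changed by -0.55 ± 0.09 with CTL and 0.61 ± 0.09 with anti-IFNg on its brightest probe. Sec61a1, the translocon channel, changed by -0.58 ± 0.09 and 0.52 ± 0.09, and Pdia6 by -0.76 ± 0.13 and 0.65 ± 0.13. The exception in both directions was Tapbpl, the tapasin-like peptide editor (2.56 ± 0.49 and -2.65 ± 0.49). The lower calls with CTL were 13 under quantile normalization and 15 under normexp, but 4 with a single CTL effect for all days, 1 without day 3 and 0 without day 5 or with only the arms compared, while the median kept its sign. The higher calls with anti-IFNg were 14 under quantile normalization, 5 with no filter on dim probes, 2 without day 7, and 0 under normexp, with a single CTL effect, with only the arms compared, and without day 3 or day 5.

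**Figure D4:**
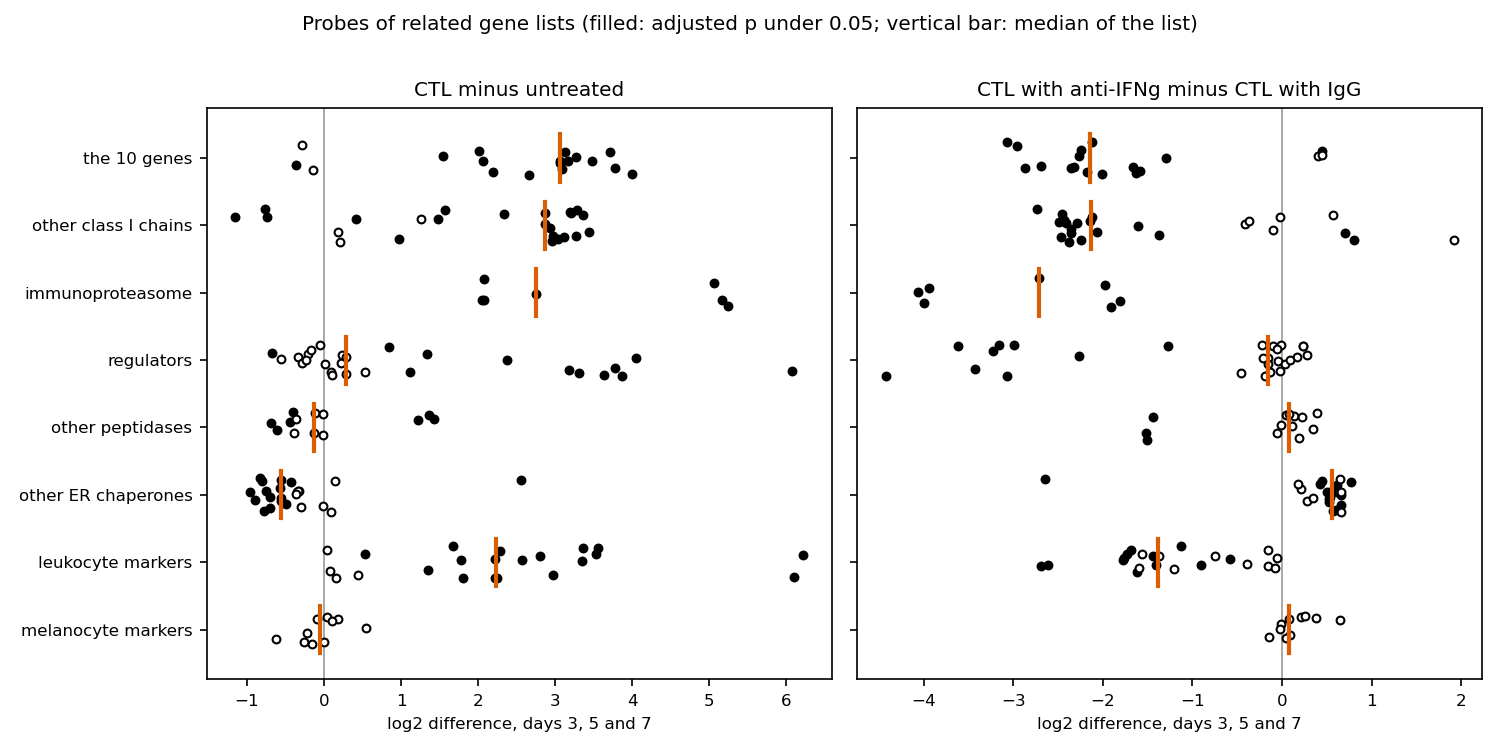
Log2 differences on days 3, 5 and 7 (x axis) of every tested probe of the 10 genes and of 7 related gene lists (y axis, points spread vertically for visibility, probes dim in an arm at their fitted value), for CTL minus untreated (left) and CTL with anti-IFNg minus CTL with IgG (right). List medians with CTL are 3.06 for the 10 genes, 2.87 for other class I chains, 2.75 for the immunoproteasome, -0.55 for other chaperones and -0.05 for melanocyte markers.

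The receptors of Qa-1, the product of H2-T23, were followed as well. A Klrc2 probe and the Klrd1 (CD94) probe were well above background on 0 of the 3 untreated arrays of days 3 to 7. They were at least 7.5-fold and at least 15.1-fold higher in CTL tumours. Both passed with CTL, but on days 3 to 7 they were well above background only in arms that received CTL. Their fit used untreated values too dim to measure, so that call is not used as support. These bounds set the mean of the 3 CTL arrays against the lowest signal well above background on each untreated array. The Klrc1 probe and the other Klrc2 probes were too dim to be tested. They were well above background on 0 of the 3 CTL arrays of days 3 to 7, so the Klrc2 bound rests on 1 probe. Without day 5, 1 of the 2 tested probes passed. With anti-IFNg the tested Klrc2 probe was well above background on 1 of 3 arrays, so no difference from IgG is given for it.

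Leukocyte markers moved with the class I genes. With CTL, 18 of 22 tested probes of 15 genes were higher and 0 lower, and with anti-IFNg 12 were lower and 0 higher than with IgG. The 18 came to 7 without day 5, 9 with a single CTL effect and 12 with only the arms compared. The 12 came to 0 without day 5 or with a single CTL effect, 4 under normexp, 7 with no filter on dim probes, and 5 without day 3 or with only the arms compared. Their summed level, in units of the array's 75th percentile, was 4.61 to 7.20 with anti-IFNg on days 3 to 7, 11.1 to 18.7 with IgG, 14.8 to 21.1 in CTL tumours and 3.60 to 4.10 in untreated tumours. On day 1 it was 4.41 in CTL and 4.47 in untreated tumours. Ptprc (CD45) was 3.56 ± 0.20 higher with CTL, and Cd8a, dim on all 3 untreated arrays of days 3 to 7, was at least 22-fold higher. With anti-IFNg against untreated tumours, 3 leukocyte marker probes passed, of Cd8a, Cd3d and Itgax, the last named after its values were seen. The Itgax probe that passed was well above background on all arrays and differed by 2.07. A further tested Itgax probe, well above background on only 3 arrays, did not pass. It read -4.40, -4.14 and -4.59 with anti-IFNg on days 3, 5 and 7, against -4.75, -4.77 and -4.10 in untreated tumours. No size is given for Cd8a and Cd3d, whose passing probes were not well above background on every array. The part of infiltrating cells in the class I values was not tested, and in such bulk tissue more cells of a type and more RNA per cell cannot be told apart. The summed level of the 7 melanocyte markers was 1444 to 1658 with anti-IFNg, 1517 to 1553 with IgG, 1480 to 1724 in CTL and 1297 to 1826 in untreated tumours.

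Over the 14 arrays, which share slides and arms, the level of Tap1 correlated with that of Tap2 at r = 0.994, and that of H2-K1 with H2-D1 at r = 0.997, as a description. Calr correlated with Pdia3 at r = 0.82 and with B2m at r = -0.84. Among 16065 genes well above background on all arrays, those closest to Tap1 were Irf8 (r = 0.994), Ctso (0.992), Irgm1 (0.991), Ciita (0.991) and Parp14 (0.990). Those closest to B2m were H2-Q7 (0.994), H2-Q1 (0.993), H2-Q2 (0.992), H2-Q10 (0.992) and Ms4a6b (0.989). Those closest to Calr were Hsp90b1 (0.963), Dnajc3 (0.955), Pigu (0.947), Dnajb11 (0.938) and Pcnx3 (0.937), of which Hsp90b1, Dnajc3 and Dnajb11 encode chaperones or cochaperones of the endoplasmic reticulum.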

How the data were processed

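Values were read from the authors' deposited scanner files of 14 arrays, made with Feature Extraction 9.5.3.1 and annotated on mm8, per the file headers. The intensity used was the deposited processed signal, which per the file headers is background-subtracted. Spots of a probe were averaged as log2 values, and each array's 75th percentile was subtracted. The authors' deposited log2 table correlated at r = 1 with these values on every array and differed from them by a constant of -0.0730 to -0.0329 per array, with array medians of -3.54 to -3.14. Its scale is therefore log2 and its centring lies near the 75th percentile.

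Probes well above background on at least 3 arrays were kept (24515 of 41174). limma 3.58.1 in R 4.3.3 fitted arm, day and a term of its own for the CTL array of day 1 on all 14 arrays (6 residual degrees of freedom), with Benjamini-Hochberg adjustment over all kept probes. The day 1 term was added because earlier results of these data showed another CTL effect on day 1. The code was tested on simulated data. Day is the block: the labels give each arm the same days, and over 18 same-day pairs of arrays the deviations correlated with a median r of 0.125 (-0.0587 to 0.514), above 0.1 in 12. The number of arrays limits the precision.

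Every tested probe of the 10 genes entered the counts. Of each related list the text names 2 to 4 passing genes with the smallest p between CTL and untreated tumours. 1 gene that this rule names is not reported here. The members and lists were chosen with earlier results of these data known. 2 lists held a gene with no probe under its name, Nlrc5 among the regulators and Ly6g among the leukocyte markers. Alternatives covered quantile normalization, normexp background correction (offset 50), filters, the deposited table, the design, 1 probe per gene, an intensity trend and leaving out each day.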

Additional observations from a re-analysis of the deposited data

Results flagged for a closer look

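The CTL effect of day 1 was smaller than that of days 3 to 7 by limma's interaction term (adjusted p under 0.05) for 9 probes. The log2 differences were -2.03 and -2.49 for B2m probes 1 and 3, -3.03 and -3.01 for H2-D1 probes 1 and 2, -3.13, -3.24, -3.35 and -3.04 for H2-K1 probes 1 to 4, and -3.64 for H2-T23. The interaction term was chosen with a day 1 difference already known, so these calls are a description.

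Among the 4 CTL arrays, that of day 1 lay far below the others for 3 probes. H2-D1 probe 2 read 4.35 on day 1 against 7.08 on the next lowest CTL array, H2-K1 probe 4 read 1.49 against 4.29, and B2m probe 3 read -0.56 against 1.65. The gap took 0.892, 0.846 and 0.832 of the range, above Dixon's critical value for 4 samples. Chance passes that value in about 1 in 20 groups when all 4 samples come from 1 population. Here the 4 arrays are of different days, and the CTL effect of day 1 was already known to differ. The gaps are therefore a description only, and the share of all probes with such a gap is not given here.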

How the results depend on the processing

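Over 13 other settings no member probe reversed its direction between CTL and untreated tumours or between anti-IFNg and IgG. Reversals in the other comparisons were not counted. Of the 15 raised probes, the calls between CTL and untreated tumours were kept in every setting except with only the arms compared (13 kept) and without day 5 (12). Those between anti-IFNg and IgG were kept except with 1 CTL effect for all days (0), with only the arms compared (13), without day 3 (14) and without day 5 (5). With 1 probe per gene all 8 raised genes kept both calls; 10 probes were tested by construction, and 9, 9, 10 and 4 passed for CTL against untreated, anti-IFNg against IgG, IgG against untreated and the day 1 difference. The day 1 difference gave 0 member calls with only the arms compared, and 0 to 8 with a day left out. Anti-IFNg against IgG gave 5 to 15 with a day left out. The slope gave 1 member call with probes above background on all arrays, 1 with the intensity trend and 7 with no replicate block, and anti-IFNg against untreated gave 1 with the trend. The cause of these changes was not tested.

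Counts over all probes moved more. CTL against untreated (7033, of which 31.6% higher) gave 4190 with no filter, 1964 with 1 CTL effect, 1027 with only the arms compared and 778 to 7210 with a day left out, and 5286 under normexp, of which 46% higher. The median of all probes in this comparison was -0.12, against 0.16 under normexp. Anti-IFNg against IgG (2750, 54.1% higher) gave 715 under normexp (19.7% higher), 1420, 3 and 1049 in the other settings named in that order, and 84 to 1748 with a day left out. IgG against untreated (4134, 38.7% higher) gave 1063 under normexp (67.8% higher), then 2565, 2027 and 1380, and 558 to 3633. Anti-IFNg against untreated (30) gave 46 under quantile normalization, 2 under normexp, 16 with no filter, 16 above background on all arrays, 0 with no replicate block, with 1 CTL effect or with only the arms compared, 55 with the trend and 1 to 24 with a day left out. IgG against CTL (2) gave 4 under quantile normalization, with no replicate block or with 1 CTL effect, 0 under normexp, above background on all arrays, with only the arms compared or with the trend, and 0 to 2 with a day left out. The day 1 difference (222) gave 58 under normexp, 1829 with no replicate block, 0 with only the arms compared, 347 with the trend and 7 to 353 with a day left out. The slope (53) gave 7 under normexp, 1 with no filter, 195 above background on all arrays, 2068 with no replicate block, 84 with 1 probe per gene and 267 with the trend. With no replicate block, Calr probe 1 lost its call between CTL and untreated (adjusted p = 0.086) and between anti-IFNg and IgG (0.0796), Pdia3 gained both (0.0447 and 0.0318), and the day 1 difference gave 10 member calls against 9, B2m probe 2 being added (0.0102).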
